A study of Mus musculus with 4 samples.

Results

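The expression of 10 transcription factor genes that specify, maintain or move melanocytes and their neural crest precursors (Mitf, Sox10, Pax3, Tfap2a, Tfap2b, Sox9, Sox5, Foxd3, Snai2 and Zeb2) was examined in 4 mouse melanocyte lines. They were taken by name, with each of the 31 probe sets listed for a single one of these genes, out of 34945 such probe sets for 18193 genes. The lines were established from the skin of C57BL/6J pups at 3 days of age and grown to 80% confluency in 10% serum with 200 nM TPA, a phorbol ester that sustains melanocytes in culture. Each line gave 1 Affymetrix array, and RNA integrity numbers were 9.7 for 9v, 9.8 for 10d and 14d, and 9.9 for 13d. WT lines carry no transgene, while bcat* lines come from mice that express a stabilised, transcriptionally active β-catenin in the melanocyte lineage (the promoter is not named in the sources used here). The lines are immortalized, and fibroblasts were removed with G418 during their establishment.

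Line 9v is WT and line 10d is bcat* in every source. The sample labels give 13d as bcat* and 14d as WT, whereas the article gives these lines the other way round, so values are reported by line name and both readings were tested. Labels give 9v and 10d as male and 13d and 14d as female, whereas the article describes the donor mice as male. Xist, the X-inactivation transcript, had an intensity of 7 in both male lines and of 913 in 13d and 507 in 14d, and the Y-linked Eif2s3y had 690 in 9v, 1088 in 10d and 13 in both female lines. Ctnnb1, which encodes β-catenin, ranged from 30254 in 9v to 34368 in 13d, and its probe sets do not tell the transgene from the endogenous gene. Values are linear intensities, and an intensity of 32 was taken as the detection level, reached by 35.8% to 36.1% of 45037 probe sets per array. Of 10 melanocyte markers 9 were detected, with summed intensities from 251244 in 9v to 271444 in 14d. The sums came mainly from Tyrp1, Dct and Pmel, with 53999, 53134 and 50539 in 9v. Of the 9, 3 (Gpr143, Mc1r and Slc45a2) differed by at least 2-fold between lines, beside 40.1% of all detected genes. Ednrb, the endothelin receptor, had 29 in every line by its brightest probe set and reached 34 in 14d by another. Immune markers (0 of 11) and all but 1 of 9 measured keratinocyte markers were under the detection level. Of 9 endothelial and muscle markers 2 were detected, Acta2 (23 in 9v, 64 in 10d, 19 in 13d and 18 in 14d) and Des (32 to 36). Of 11 fibroblast markers 3 were detected, Fbln1, Col1a2 and Postn, while Col1a1, Col3a1, Dcn and Lum were not. Their summed intensities were 2580 in 9v, 560 in 10d, 311 in 13d and 122 in 14d, mostly from Fbln1 in 9v and 10d. Col1a2 had 175 in 9v, 80 in 10d, 24 in 13d and 17 in 14d, and Postn 38, 34, 61 and 20 in the same order. The part of such cells in the results below was not tested.

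As background, Mitf is the helix-loop-helix factor that drives pigment genes, and the melanocyte form of Mitf starts at its own promoter. Sox10 and Pax3 activate that promoter, and β-catenin acts on it through Tcf/Lef factors. Foxd3 restrains Mitf in neural crest cells, Snai2 and Zeb2 are zinc finger factors of cell migration that bind E-boxes, and AP-2 factors (Tfap2a, Tfap2b) act early in the neural crest and again in melanocytes. In humans, mutations of MITF, PAX3, SOX10 or SNAI2 cause Waardenburg syndrome, with patches of skin that lack melanocytes.

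The upstream sequences below are shown because Tfap2b and Sox5 had the largest ranges over the lines, and because β-catenin is known to act at the melanocyte start of Mitf. Each is the 250 bases before a RefSeq start (build GRCm38.p6), written 5′ to 3′ on the strand of the gene. Capitals mark matches on either strand to CTTTGA (Tcf/Lef core), CACGTG or CATGTG (E-boxes of MITF), CAGGTG (E-box of Snail and Zeb factors), CATTGT (Sox core) or GCCNNNGGC (AP-2). The Mitf window lies at chr6:97991533-97991782 on the plus strand, before the most downstream of 3 starts. The Tfap2b window lies at chr1:19211804-19212053 on the plus strand and the Sox5 window at chr6:143947107-143947356 on the minus strand.
Mitf: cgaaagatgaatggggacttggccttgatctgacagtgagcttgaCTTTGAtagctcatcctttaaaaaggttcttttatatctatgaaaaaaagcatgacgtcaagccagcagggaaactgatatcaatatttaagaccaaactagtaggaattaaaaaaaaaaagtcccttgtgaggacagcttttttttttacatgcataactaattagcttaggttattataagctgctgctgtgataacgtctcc
Tfap2b: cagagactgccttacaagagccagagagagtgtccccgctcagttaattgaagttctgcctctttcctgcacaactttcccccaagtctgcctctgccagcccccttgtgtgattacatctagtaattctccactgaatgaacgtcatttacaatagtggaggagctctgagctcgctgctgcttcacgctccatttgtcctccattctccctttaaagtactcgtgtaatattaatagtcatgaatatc
Sox5: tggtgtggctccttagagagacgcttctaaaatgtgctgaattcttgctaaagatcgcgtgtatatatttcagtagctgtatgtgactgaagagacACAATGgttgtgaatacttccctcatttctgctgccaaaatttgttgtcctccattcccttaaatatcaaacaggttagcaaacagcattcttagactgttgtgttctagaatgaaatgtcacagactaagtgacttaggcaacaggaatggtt
The Mitf window held a single match, to the Tcf/Lef core, which begins 205 bases before the start, and the Sox5 window held a Sox core that begins 154 bases before the start. The Tfap2b window matched none of these letters. Across 12 windows of 6 of the genes, the Tcf/Lef core was found in that Mitf window alone, and 13.8% of all 32851 windows of this length held it. CACGTG was found before Foxd3 (6.02% of all windows), CAGGTG before the middle start of Mitf (17.2%), and CATTGT before Sox5 alone (10.7%). The AP-2 letters were found before 2 of 4 Zeb2 starts, whose windows overlap and share the match (13.7%), and CATGTG in none (12.3%). Sox10, Pax3, Sox9 and Snai2 had no entry. These matches describe the sequence and are not evidence of binding.

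Of the 10 genes, 9 reached the detection level in at least 1 line, by 23 of the 31 probe sets. Sox9, a Sox factor of chondrocytes and neural crest that is also found in melanocytes, did not, and its 3 probe sets had intensities from 8 to 18 in the 4 lines. For each other gene the brightest probe set on average is given first. With intensities under 32 raised to 32, Tfap2b, Sox5, Foxd3 and Snai2 differed by at least 2-fold between the highest and the lowest line by their brightest probe set, 4 of 9 genes, beside 40.1% of all 9415 detected genes. The median range was 1.91-fold for the 9 genes and 1.79-fold for all detected genes, so that as a list they varied about as much as the rest. With a single array per line, the order of neighbouring lines has no replicate check. Other probe sets of the same gene, which share its RNA, are given beside the first.

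**Figure D1:**
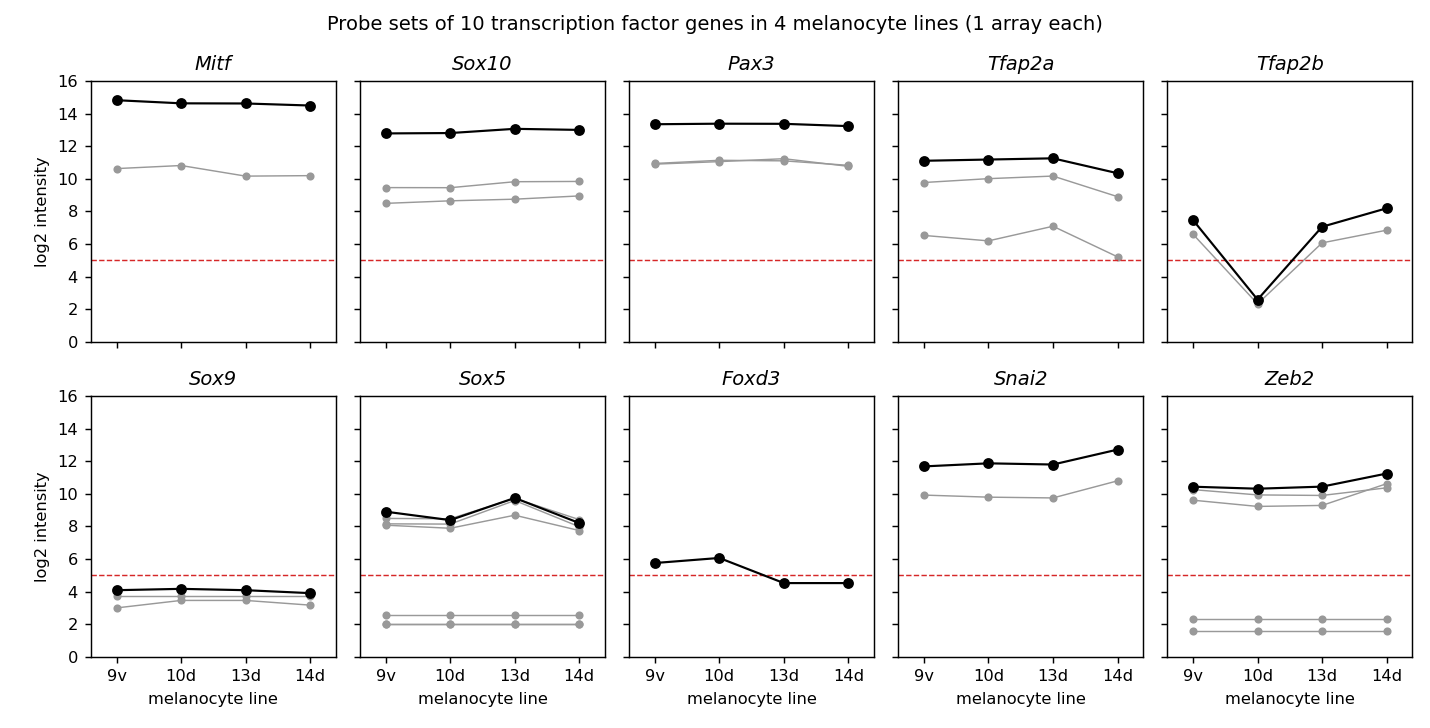
Log2 intensity (vertical axis, shared) of every probe set of the 10 genes in lines 9v, 10d, 13d and 14d, 1 array each and therefore without error bars. Black marks the probe set with the highest mean, grey the others, and the dashed line the detection level of 5 (an intensity of 32). Mitf, Sox10 and Pax3 are nearly level, Tfap2b drops under the dashed line in 10d, and Sox9 lies under it in all lines.

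Mitf, Sox10 and Pax3, the core of the melanocyte program, were near-constant by their brightest probe sets. Mitf had intensities of 29002 in 9v, 25382 in 10d, 25220 in 13d and 23118 in 14d, a range of 1.25-fold. Its other probe set read 1580, 1801, 1147 and 1171 in the same order, with 10d highest, so that the full order of the lines was not shared. In both probe sets 9v and 10d lay above 13d and 14d, by little between 10d and 13d in the brightest. The files do not say which form of Mitf either probe set reads.

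Sox10, which activates Mitf and Dct, had intensities of 7056 in 9v, 7168 in 10d, 8578 in 13d and 8195 in 14d. All 3 of its probe sets were higher in the female lines 13d and 14d than in 9v and 10d. From the lowest to the highest line, their ranges were 1.22-fold to 1.37-fold. Pax3, a paired-box factor, had 10426 in 9v, 10673 in 10d, 10616 in 13d and 9628 in 14d, and each of its 3 probe sets was lowest in 14d. By the brightest probe sets, 89.3% of all detected genes had a larger range than Mitf. For Sox10 this share was 92.2% and for Pax3 97.3%. Their other probe sets had wider ranges, of 1.57-fold for Mitf and up to 1.37-fold for Sox10 and 1.38-fold for Pax3. These were not placed among all genes.

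Among the AP-2 factors, Tfap2b stood out. It had intensities of 177 in 9v, 6 in 10d, 133 in 13d and 292 in 14d, and the other probe set had 97, 5, 67 and 115 in the same order. Line 10d was thus under the detection level in both probe sets, and the other lines were above it. Relative to that level, Tfap2b was at least 9.12-fold higher in 14d, 5.53-fold in 9v and 4.16-fold in 13d than in 10d, or at least 3.59-fold, 3.03-fold and 2.09-fold by the other probe set. Of all detected genes, 3.84% had a larger range.

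Tfap2a, its close relative, was not low in 10d. It had intensities of 2203 in 9v, 2323 in 10d, 2446 in 13d and 1298 in 14d, and the other probe sets had 874, 1030, 1150 and 479, and 92, 73, 136 and 37. In all 3 probe sets 13d was highest and 14d lowest, with ranges of 1.88-fold, 2.40-fold and 3.68-fold. The line with the least Tfap2a was therefore the line with the most Tfap2b.

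Sox5, which counteracts Sox10 at melanocyte promoters, was highest in 13d. It had intensities of 480 in 9v, 335 in 10d, 861 in 13d and 296 in 14d. The other detected probe sets had 360, 355, 844 and 342, then 286, 283, 772 and 253, and then 270, 237, 413 and 215. All 4 placed 13d highest and 14d lowest, with ranges of 1.92-fold to 3.05-fold, and in each the other 3 lines lay closer together than any of them did to 13d. Its 3 remaining probe sets had intensities of 4 to 6 in every line.

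Snai2 and Zeb2 were highest in 14d. Snai2 had intensities of 3292 in 9v, 3752 in 10d, 3567 in 13d and 6728 in 14d, and its other probe set had 972, 890, 861 and 1781, with ranges of 2.04-fold and 2.07-fold. The first of these is marked by its suffix as open to cross-hybridization, and the second is not.

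Zeb2 had intensities of 1388 in 9v, 1275 in 10d, 1393 in 13d and 2430 in 14d. Its other detected probe sets had 1226, 979, 957 and 1324, and 782, 600, 626 and 1578, with ranges of 1.38-fold and 2.63-fold. Line 14d was highest in each of the 3, by a margin over 9v that depended on the probe set, and 2 further probe sets of Zeb2 had 3 and 5 in every line.

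Foxd3 was measured by a single probe set near the detection level. It had intensities of 54 in 9v, 67 in 10d, 23 in 13d and 23 in 14d, so that the male lines lay above the level and the female lines under it. Its range of at least 2.09-fold rests on these dim values.

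**Figure D2:**
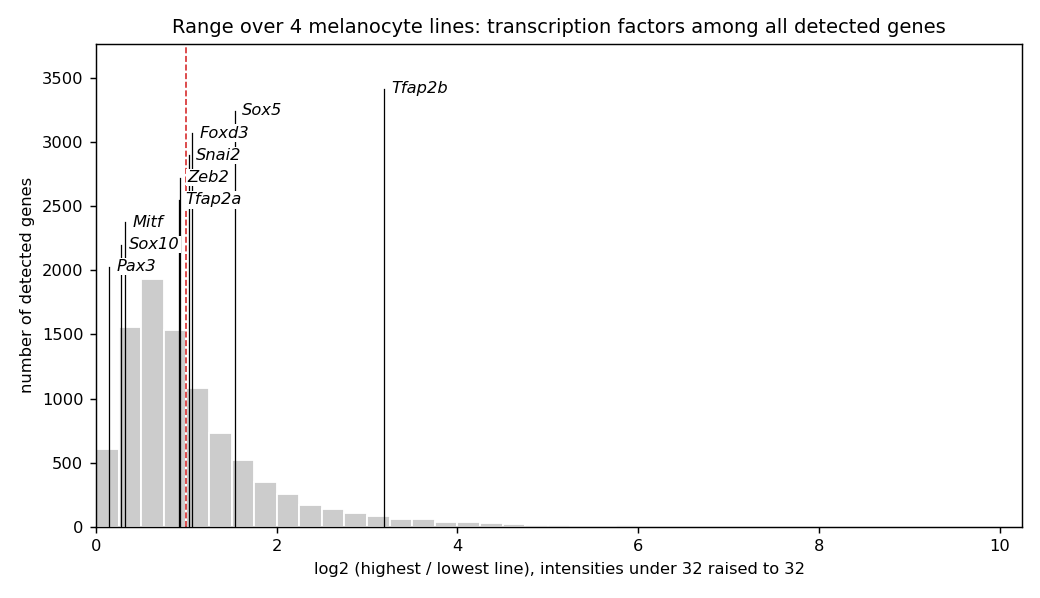
Number of detected genes (vertical axis) by the log2 ratio of the highest to the lowest of the 4 lines, with intensities under 32 raised to 32 (grey bars). Vertical lines, whose height has no meaning, mark the 9 detected transcription factors, and the dashed line marks 2-fold. Pax3, Sox10 and Mitf lie at the left of the distribution and Tfap2b, at 3.19, far to the right.

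The lines were next compared in pairs, first by the brightest probe set of each gene. Line 10d and line 9v, whose genotypes are not in dispute, differed by at least 2-fold in 1 of 9 genes, Tfap2b, which was lower in 10d, beside 17.9% of all genes detected in either line. By that probe set, 0 of 9 genes differed by 2-fold between 13d and 9v (13% of all genes), and Snai2 alone did between 14d and 9v (15.4%). Between 13d and 10d there were 3 genes (Tfap2b, Sox5 and Foxd3, beside 14.8%), between 14d and 10d 2 genes (Tfap2b and Foxd3, 23.9%), and between 14d and 13d 2 of 8 detected genes (Tfap2b and Sox5, 19.7%). Tfap2b thus took part in 4 of the 6 pairs, all 3 with line 10d and that of 14d with 13d.

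Other detected probe sets of the same genes added differences of at least 2-fold, for which no share of all genes was taken. Between 13d and 9v, 2 of the 4 detected Sox5 probe sets gave 2.34-fold and 2.70-fold, beside 1.79-fold for the brightest. Between 14d and 9v, a Zeb2 probe set gave 2.02-fold and the dimmest of Tfap2a a ratio of 0.402. Between 14d and 10d, a probe set of Zeb2 gave 2.63-fold, one of Snai2 2.001-fold and one of Tfap2a a ratio of 0.465. Between 14d and 13d, Zeb2 reached 2.52-fold and Snai2 2.07-fold by such probe sets, and Tfap2a ratios of 0.417 and 0.272. The other Tfap2b probe set passed 2-fold in the 3 pairs with 10d but gave 1.72-fold between 14d and 13d. The dimmest detected Sox5 probe set stayed under 2-fold, with 1.74-fold between 13d and 10d and a ratio of 0.521 between 14d and 13d. The other Snai2 probe set gave 1.83-fold between 14d and 9v.

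The effect of the genotype was then tested with limma over all 17423 detected probe sets, with 2 lines per genotype, once as labelled (10d and 13d against 9v and 14d) and once as in the article (10d and 14d against 9v and 13d). No probe set of the 10 genes passed an adjusted p of 0.05 in either reading (0 of 23), and neither did any other (0% in both readings). At an unadjusted p under 0.05, 559 probe sets were higher and 728 lower in bcat* lines as labelled, and 233 and 415 as in the article, with none of the 23 among them. These p-values measure the spread between lines, which also differ by pup and by sex.

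The size of the differences was read from the intervals. For Mitf the log2 difference, bcat* minus WT, was -0.03 as labelled (95% interval -0.77 to 0.70, limma adjusted p = 0.978) and -0.16 as in the article (-0.88 to 0.56, adjusted p = 0.973). For Sox10 it was 0.04 (-0.70 to 0.79) and -0.02 (-0.79 to 0.74), and for Pax3 0.09 (-0.58 to 0.76) and -0.05 (-0.75 to 0.64). Differences of 2-fold thus lay outside these intervals, but not outside those of every probe set or fit. The other Mitf probe set had an interval of -0.95 to 1.11 as labelled and of -0.95 to 1.17 as in the article. With sex as a block, the intervals as labelled were -1.05 to 0.98 for Mitf, -0.93 to 1.02 for Sox10 and -0.89 to 1.07 for Pax3, and 2-fold lay inside each.

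The other factors had wider intervals, and for most of them the direction turned with the reading. Tfap2b had a log2 difference of -3.01 as labelled (-7.66 to 1.64, limma adjusted p = 0.758) and of -1.87 as in the article (-7.83 to 4.08, adjusted p = 0.969). Without line 10d these became -0.77 and 0.93. The estimates with 10d used its intensity of 6 as deposited, which is under the detection level. With that intensity raised to 32, the log2 difference of Tfap2b was -1.80 as labelled and -0.67 as in the article. Sox5 had 0.51 (-1.18 to 2.20) as labelled and -1.03 (-2.16 to 0.10, unadjusted p = 0.0643 from limma, adjusted p = 0.969) as in the article.

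Tfap2a had 0.50 as labelled and -0.42 as in the article, Snai2 -0.36 and 0.55, and Zeb2 -0.46 and 0.34. Without line 14d, Snai2 had 0.15 as labelled and Zeb2 -0.13 as in the article, and without line 13d Sox5 had -0.17 as labelled. Foxd3 had 0.16 in both, since its values in the 2 female lines were equal. By the brightest probe sets as labelled, both bcat* lines lay above both WT lines for Pax3 and Tfap2a (2 of 9 genes, beside 18.4% of all genes) and below them for Tfap2b (1 of 9, beside 19.5%). As in the article, they lay above for Snai2 (1 of 9, beside 16.1%) and below for Sox5 (1 of 9, beside 14.1%). Separation in both readings was not possible for any gene, whatever its values. The readings exchange the genotypes of 13d and 14d and keep those of the other lines.

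**Figure D3:**
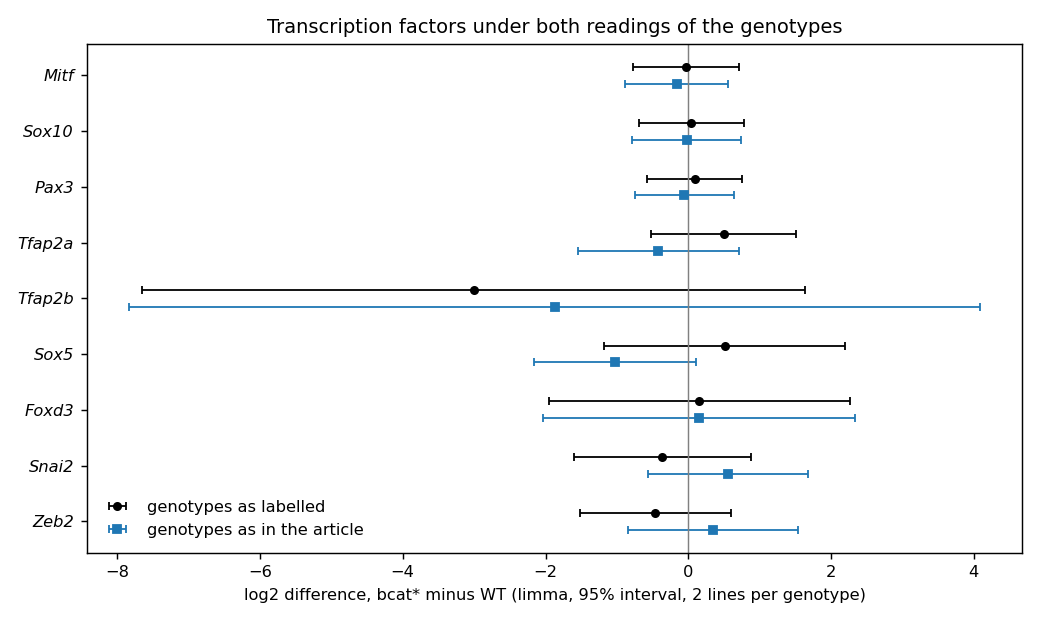
Log2 difference between bcat* and WT lines (horizontal axis) for the 9 detected transcription factors, by limma with 2 lines per genotype. Points give the estimate and bars the 95% interval, black for the genotypes as labelled and blue for those in the article. Every interval includes 0, and those of Mitf, Sox10 and Pax3 are the narrowest.

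By the distance between log2 profiles over the 4 lines, with intensities under 32 raised to 32 and each profile centred on its mean, the genes most like Tfap2b among 9406 others were Nipa1, Pdia5 and Ckap4. Nipa1, a magnesium transporter gene, had intensities of 607 in 9v, 132 in 10d, 400 in 13d and 1006 in 14d (distance 0.32). Pdia5, a disulfide isomerase gene, had 330, 74, 282 and 776 in the same order (distance 0.37). Ckap4, a membrane protein gene of the endoplasmic reticulum, had 704, 100, 389 and 815 (distance 0.39). As with Tfap2b, 10d was lowest and 14d highest in each, and with 4 points such a likeness is a description only. Since Tfap2b in 10d has only an upper bound, the distances hold for this detection level alone, and others were not run.

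Of 67 other transcription factors of the neural crest and the melanocyte, 61 were measured and 29 detected, and 12 of these differed by at least 2-fold between lines, beside 40.1% of all genes. The list had a median log2 range of 0.87, beside 0.84 for all genes. None passed the limma test in either direction or reading (0 of 29). Of the 12, 6 were highest in 13d, 3 in 10d and 3 in 14d. Among all 3780 genes that differed by at least 2-fold, 22.6% were highest in 13d, 29.7% in 10d and 26.9% in 14d. The list was written with earlier results of these data known, so these counts are a description only.

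Id4, an inhibitor of helix-loop-helix factors, had the largest range of this list. It had intensities of 161 in 9v, 3505 in 10d, 4049 in 13d and 237 in 14d, and its 3 probe sets all placed 10d and 13d above 9v and 14d. As labelled its log2 difference was 4.27 (3.38 to 5.16, unadjusted p = 0.000222 and adjusted p = 0.143 from limma), and as in the article 0.17 (-6.25 to 6.60). Zeb1, the paralog of Zeb2, had 30 in 9v, 36 in 10d, 337 in 13d and 11 in 14d, so that the line with the most Zeb1 was not the line with the most Zeb2.

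Hes1, a Notch target, had 15 in 9v, 5 in 10d, 139 in 13d and 15 in 14d. Meis2, a homeobox gene, had 411 in 9v, 1301 in 10d, 628 in 13d and 309 in 14d. Lef1, one of the Tcf/Lef factors through which β-catenin acts on DNA, had 8 in 9v, 12 in 10d, 20 in 13d and 85 in 14d. It reached the detection level in 14d alone, and its other probe set had 5 in every line. Of the other Tcf/Lef factors, Tcf7l1 had 663 in 9v, 454 in 10d, 1522 in 13d and 872 in 14d. Tcf7l2 had 68 to 91 by its brightest probe set. Sox6, the paralog of Sox5, had 598 in 9v, 486 in 10d, 583 in 13d and 1346 in 14d, and was thus highest in the line where Sox5 was lowest.

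Of the relatives of Mitf, Tfe3 had 372 in 9v, 371 in 10d, 327 in 13d and 394 in 14d, and Tfeb 119, 192, 186 and 204, while Tfec was under the detection level. Pou3f2 (Brn2), Snai1, Twist1, Pax7 and Sox8 were also under the detection level in all 4 lines, at intensities from 4 to 8.

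Genes known as targets of Mitf were then counted. Of 39 listed, 37 were measured and 32 detected, and 10 of these differed by at least 2-fold between lines, beside 40.1% of all genes. The median log2 range was 0.70, beside 0.84 for all genes. The pigment genes Tyrp1, Dct, Pmel, Mlana and Tyr had ranges of 1.06-fold, 1.08-fold, 1.12-fold, 1.30-fold and 1.42-fold. These are ranges of the brightest probe sets. Those of Tyrp1, Dct and Pmel had intensities of 49559 to 57474, beside array maxima of 72776 to 84904. Whether the signal is limited so near the top was not tested. For Tyr, which encodes tyrosinase, the other probe sets had wider ranges, with 21730 in 9v, 16884 in 10d, 11101 in 13d and 21631 in 14d by one, and 11552, 9575, 6387 and 13802 by the other. Line 13d was lowest in all 3 probe sets of Tyr.

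The largest ranges of the Mitf targets were those of Trpm1, Oca2, Tbx2 and Cited1. Trpm1, a cation channel gene, had 6329 in 9v, 11869 in 10d, 4521 in 13d and 2181 in 14d, and in its other detected probe sets 9v or 10d was highest as well. Oca2, which acts on melanosome pH, had 12182 in 9v, 16985 in 10d, 4710 in 13d and 5931 in 14d. Both were thus higher in the male than in the female lines, as both Mitf probe sets were, the brightest by a narrow margin. Tbx2, a T-box factor, had 823, 457, 1642 and 672 in the same order, and Cited1, a transcriptional coactivator, 7309, 3374, 2563 and 8151. Tbx2 and Cited1 did not separate the male from the female lines.

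Of 25 genes listed as targets of Sox10, 23 were measured and 12 detected, and 7 of these differed by at least 2-fold, beside 40.1% of all genes. All 7 were highest in 13d, as were 22.6% of all 3780 genes that differed by at least 2-fold. The list was written with earlier results of these data known, so this is a description of 1 array only. Sox10 itself had a range of 1.22-fold. Erbb3, a neuregulin receptor that Sox10 activates in glia, had intensities of 1762 in 9v, 1818 in 10d, 5211 in 13d and 2662 in 14d. S100b, a calcium-binding protein of glia and melanocytes, had 58 in 9v, 308 in 10d, 3836 in 13d and 5 in 14d. Gja1 (a gap junction connexin) had 1702, 44, 7630 and 3323 in the same order, Pmp22 (a myelin protein) 6, 1646, 3490 and 1124, and Fabp7 (a fatty acid binding protein) 195, 358, 1559 and 364. These genes did not share an order among the other lines, since 10d was lowest for Gja1, 14d for S100b and 9v for Pmp22, Fabp7 and Erbb3.

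Several of these genes also mark Schwann cells. Of 14 Schwann cell markers 11 were measured and 6 detected, with summed intensities of 5894 in 9v, 12023 in 10d, 13188 in 13d and 7968 in 14d. Most of each sum came from Cdh19, with 4906 in 9v, 8492 in 10d, 7637 in 13d and 5248 in 14d. Cdh19, Pmp22 and Cnp are also among the listed Sox10 targets. Mbp, Mal, Egr2, Gjb1 and Ncmap were under the detection level in all lines. The part of this marker level in the values of the Sox10 targets was not tested.

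Of 16 genes of cell adhesion and the mesenchymal state, known to be under Snail and Zeb factors or to change with them, 15 were measured and 8 detected, and 4 differed by at least 2-fold, beside 40.1% of all genes. Cdh2 (N-cadherin) had intensities of 2214 in 9v, 2422 in 10d, 2823 in 13d and 5458 in 14d, and was thus highest in 14d, as Snai2 and Zeb2 were. Cdh1 (E-cadherin), which these factors repress, had 12 in 9v, 14 in 10d, 272 in 13d and 16 in 14d, and was above the detection level in 13d alone, where Zeb1 was highest. Fn1 (fibronectin) had 3512 in 9v, 5743 in 10d, 11809 in 13d and 2794 in 14d. Mmp2, a matrix metalloprotease, had 4720 in 9v and 5123 in 10d, and 13042 in 13d and 13381 in 14d, so that the female lines lay above the male lines.

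**Figure D4:**
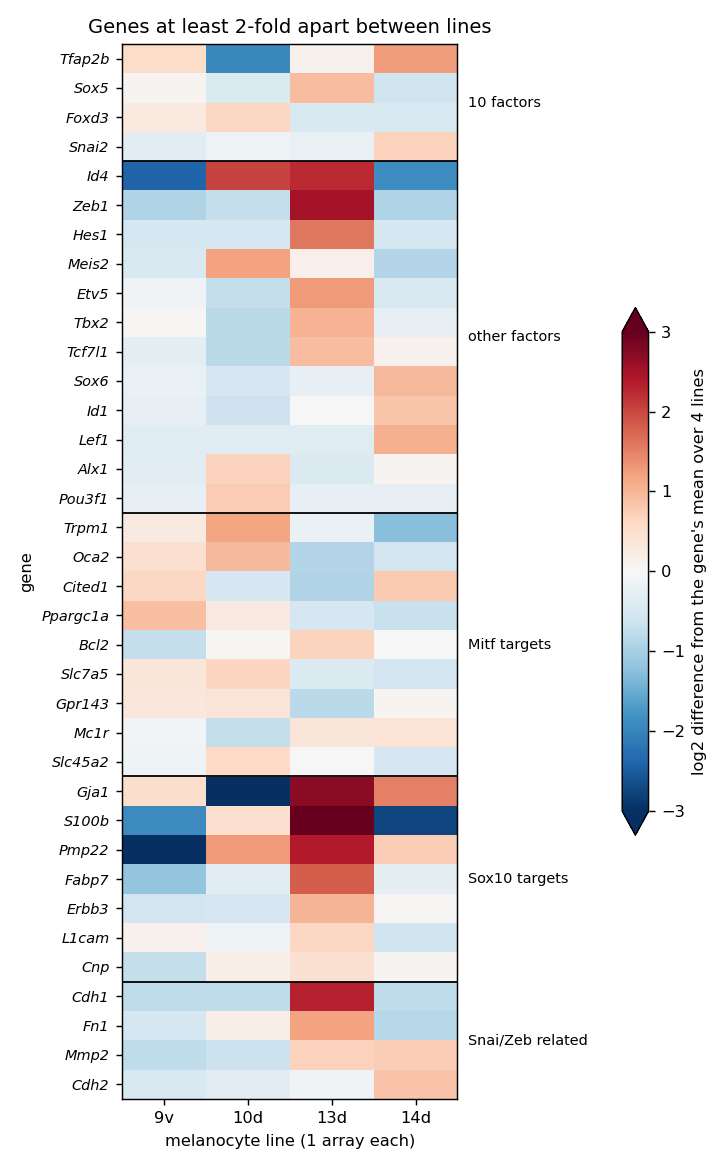
Log2 difference of each line (columns) from the mean of the gene over the 4 lines, with intensities under 32 raised to 32, for the 36 genes of the lists that differed by at least 2-fold between lines (rows, grouped by list, each gene drawn once). Red is higher and blue lower, and colours are capped at 3. All 7 Sox10 targets are reddest in 13d, Id4 is red in 10d and 13d, and Tfap2b is blue in 10d.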

How the data were processed

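The authors deposited 1 linear intensity per probe set and array, made with GCRMA (background correction and normalization across arrays) according to the submitters' processing notes, which name no version. The deposited values are whole numbers of at least 2 that reach 84904, and were therefore taken as linear, so ratios of dim probe sets are coarse. Log2 was taken. Probe sets were named from the platform annotation, which lists 34945 of 45037 with 1 gene, 932 with several and 9160 with none, and the brightest probe set (mean log2 over the arrays) stood for a gene. The 10 genes, the other gene lists and the markers were chosen with earlier results of these data known.

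Detection was set at 32 in at least 1 line. Ranges and line pairs used values raised to 32 and a threshold of 2-fold. The genotype test was limma (lmFit and eBayes, two-sided, Benjamini-Hochberg over 17423 probe sets), and was tested on simulated data, where it recovered the sizes put in but called only the larger of them. Genes named were the 10 factors, up to 4 genes of each list with the largest range, 3 nearest profiles and a few fixed markers. Sox6, Tcf7l1, Tcf7l2, Erbb3, Xist, Eif2s3y, Fbln1, Tfec and the undetected factors were named after their values were seen. Alternatives were other normalizations, filters, probe set rules, thresholds, sex as a block and leaving out each line. Promoters and motifs came from a RefSeq table of GRCm38.p6, and no genome was used. R 4.3.3, limma 3.58.1, Python 3.11.15, NumPy 2.4.6, pandas 2.3.3 and matplotlib 3.10.9 were used. The number of arrays limits the precision.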

Additional observations from a re-analysis of the deposited data

Results flagged for a closer look

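For Sox5, the difference between bcat* and WT as labelled ran in opposite directions in male and female lines, with a log2 difference of -0.52 between 10d and 9v and of 1.54 between 13d and 14d. The male difference rests on the brightest probe set, since the other 3 detected probe sets of Sox5 gave -0.0202, -0.0152 and -0.19 between 10d and 9v, less than 1.2-fold. For Tfap2b the same held with the genotypes as in the article, with -2.47 between 10d and 9v (10d raised to the detection level) and 1.13 between 14d and 13d. Both were singled out because each sex moved by at least 1.2-fold by the brightest probe set and the signs differed. With 1 line per sex and genotype, the difference between the sexes was not tested, and sex and line cannot be told apart.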

How the results depend on the processing

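No paired analysis was possible because the labels number no replicates, and the lines come from separate pups. Sex was run as a block instead and called 0 probe sets in either reading. In every alternative run, 0 probe sets of the 10 genes were called by limma, in either reading. Without a filter on dim probe sets, 791 probe sets were called as labelled and 209 as in the article, of which 719 and 191 were under 32 on every array. Of the 10 genes, 4 differed by at least 2-fold over the lines, and 1 at 3-fold (beside 18.7% of all genes). Over the 6 line pairs there were 9 differences of at least 2-fold among the 10 genes, beside 13% to 23.9% of all genes in each pair. These are out of 60 combinations of gene and pair, undetected ones included. At 1.5-fold there were 22 and at 3-fold 3, for which no share of all genes was taken by pair. Other alternatives moved these counts by no more than 1.5 times. The log2 range of Tfap2b, 3.19, became 4.19 at a detection level of 16, 2.19 at 64 and 2.52 with the mean of its probe sets. The range of Sox5 was 0.77 on the log2 scale when averaged over every probe set, dim ones too, and that of Foxd3 0.07 at a detection level of 64.

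Median centring, which raises 10d by 0.19 on the log2 scale since its median intensity was 7 and not 8, turned the log2 difference of Mitf to 0.0629 as labelled, and those of Sox10 to 0.0747 and of Pax3 to 0.0427 as in the article. Leaving out each line in turn (a lone line then being assumed to vary like the others), differences as labelled ranged from -0.20 to 0.13 for Mitf, -0.0852 to 0.17 for Sox10, -0.17 to 1.19 for Sox5, -0.62 to 0.93 for Foxd3 and -0.88 to 0.15 for Snai2. As in the article they ranged from -0.16 to 0.12 for Sox10, -0.13 to 0.0208 for Pax3, -0.84 to 0.00104 for Tfap2a, -4.68 to 0.93 for Tfap2b, -0.62 to 0.93 for Foxd3 and -0.13 to 0.81 for Zeb2. In the other alternatives no direction turned.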
